A study of Saccharomyces cerevisiae x Saccharomyces paradoxus and Saccharomyces cerevisiae and Saccharomyces paradoxus with 40 samples.

Results

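The core histone genes HHT1 (histone H3, YBR010W), HHF2 (histone H4, YNL030W), HTA1 (histone H2A, YDR225W) and HTB2 (histone H2B, YBL002W), were followed through meiosis in 2 yeast species and their hybrid. They were chosen by name, all 4 were found among the 3217 genes of the count tables, and all 4 passed the filter on low counts. The cultures were Saccharomyces cerevisiae, its relative Saccharomyces paradoxus, and a diploid hybrid carrying 1 genome of each. Per the labels, cells grew overnight in YPD, a rich medium, and were then moved to sporulation medium with potassium acetate, where starvation sends diploid yeast into meiosis and spore formation. The stages were T0, the moment of transfer, which served as the control, M1, the start of meiosis I, M1M2, where the end of meiosis I overlaps the start of meiosis II, and M2, the end of meiosis II. Each parental species had 3 biological replicates a stage and the hybrid had 4, which makes 12 groups and 40 libraries of poly-A RNA. Hybrids came from both directions of the cross (the MATa parent from either species), and the labels do not tell which library is which cross, so the direction was not compared. Strain names are not given in the labels. In whole cultures, fewer cells at a stage and less RNA per cell cannot be told apart.

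As background, histones H3 and H4 form a tetramer, pairs of H2A and H2B join it, and DNA wraps around the whole to make a nucleosome. In budding yeast each core histone is encoded by a pair of genes, and the genes lie as divergent couples (H3 with H4, H2A with H2B) that share the DNA between them. Their transcription rises in S phase, when new DNA needs new nucleosomes. The factor Spt10 binds upstream activating elements in the shared DNA, and the HIR complex represses most of the couples outside S phase. Yeast histone mRNAs carry poly-A tails, unlike most histone mRNAs of animals, so a poly-A library can hold them. Premeiotic S phase comes before meiosis I.

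The count files hold no coordinates and no genome build is given in the sources used here, so positions are those of the RefSeq annotation of S. cerevisiae, assembly R64, matched by gene name. Each gene has 1 coding exon on the plus strand. HHF2 lies at chrXIV:576727-577038, HHT1 at chrII:256331-256741, HTA1 at chrIV:915530-915928 and HTB2 at chrII:236492-236887, and coding lengths are 312, 411, 399 and 396 bases. The minus-strand partner genes (HHT2, HHF1, HTB1 and HTA2 in the same order) were not analysed here, because nearly all open reading frames of the files are on the plus strand (names ending in W, 3058, against 4 ending in C). Nor were the variants HTZ1 and CSE4 or the linker histone HHO1.

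How far reads of a gene and its other copy can be told apart depends on their sequence, and the closest and the least close pair are shown for that reason. HHF2 and HHF1 have 97.4% identical coding bases, with 8 differences and an identical run of 80 bases. HTA1 and HTA2 have 93.7% identity, HHT1 and HHT2 have 93.2%, and HTB2 and HTB1 have 87.9%, with 48 differences and no identical run longer than 35 bases. In the 60-base stretches below, 5′ to 3′ on the coding strand, capitals mark the bases that differ within the pair. They come from chrXIV:576889-576948 (plus strand, HHF2), chrII:255463-255522 (minus strand, HHF1), chrII:236539-236598 (plus strand, HTB2) and chrIV:914606-914665 (minus strand, HTB1) of R64.
HHF2: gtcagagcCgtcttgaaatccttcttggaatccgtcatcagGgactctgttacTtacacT
HHF1: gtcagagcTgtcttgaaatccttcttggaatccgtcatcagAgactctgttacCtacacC
HTB2: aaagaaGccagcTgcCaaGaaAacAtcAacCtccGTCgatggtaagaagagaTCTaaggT
HTB1: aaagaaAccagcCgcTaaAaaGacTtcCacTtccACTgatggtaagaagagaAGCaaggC
The HHF pair differs at 4 bases of this stretch and the HTB pair at 15. The way the authors assigned reads that match both copies, or both species in the hybrid, is not given in the sources used here. All 55408 hybrid values checked were equal to the sum of the 2 allele values, so hybrid reads without an assigned allele add to no value. How parental reads were handled is not given either. The part of either point in the levels was not tested, and counts of the 4 genes are uncertain to that extent, most of all for HHF2.

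The DNA between each member and its divergent partner was searched for the core of the histone upstream activating element on both strands, taken as TTCC, any 6 bases, TTC, any base and C. It was chosen for its known place at histone genes. HTA1 had 2 matches in the 600 bases before its start codon and each of the others had 1. Among 5999 genes of R64 with such a window, 208 (3.47%) had at least 1 match and 8 (0.133%) had 2 or more. The 120-base windows around the matches, on the plus strand and 5′ to 3′, are shown with matches in capitals, and end between 268 and 350 bases before the start codon. They are chrXIV:576329-576448 for HHF2, chrII:255944-256063 for HHT1, chrIV:915061-915180 for HTA1 and chrII:236082-236201 for HTB2.
HHF2: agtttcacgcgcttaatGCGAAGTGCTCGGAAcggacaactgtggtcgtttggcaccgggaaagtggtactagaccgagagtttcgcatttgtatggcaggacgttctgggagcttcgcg
HHT1: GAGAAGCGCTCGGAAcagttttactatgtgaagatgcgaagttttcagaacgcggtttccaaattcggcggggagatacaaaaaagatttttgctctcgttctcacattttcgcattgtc
HTA1: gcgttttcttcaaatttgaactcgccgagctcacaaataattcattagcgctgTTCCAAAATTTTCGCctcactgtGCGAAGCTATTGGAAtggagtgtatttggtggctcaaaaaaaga
HTB2: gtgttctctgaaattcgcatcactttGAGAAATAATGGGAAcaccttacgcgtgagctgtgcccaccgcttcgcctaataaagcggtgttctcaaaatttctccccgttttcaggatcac
A match describes the letters only. Binding was not measured in these libraries.

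The median library had 1348916 counts in genes, the shallowest 23453 and the deepest 7732384. The 4 shallowest libraries were S. cerevisiae M1M2 replicate 2 with 23453 counts, hybrid M2 replicate 3 with 117049, S. cerevisiae M1 replicate 2 with 159496 and S. paradoxus M2 replicate 2 with 300704. Beside results of the 4 histone genes that change most without 1 of them, the value without it is given. The stage labels were checked on IME2, a kinase that starts meiosis, NDT80, the factor that commits cells to the meiotic divisions, and CDA1, an enzyme of the spore wall. At M2 all 3 were higher than at T0 in each genotype, by 4.28 to 8.22 on the log2 scale, and at M1 NDT80 passed the test in none of them. IME2 passed at M1 in each genotype. CDA1 passed at M1 in S. cerevisiae (2.94) and S. paradoxus (2.65) but not in the hybrid (0.94). NDT80 had 2.01, 1.09 and −0.22 at M1 in the same order. Whether the genotypes were equally far along at M1 was not tested. The 4 histone genes together took 0.0764 to 0.938% of the counts of a library.

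Levels below are CPM in genes (counts scaled to a common library total), scaled with TMM, and differences are log2 fold changes ± SE from the edgeR quasi-likelihood test on counts, called at a Benjamini-Hochberg adjusted p below 0.05 over all genes tested (3094, or 2997 for alleles). Over 37 comparisons and 4 genes, 16 of 148 tests passed. Beside this, between 0% and 26% of all genes passed in a single comparison. Many comparisons share groups, so these tests are not independent. HHF2 passed in 9, HTA1 in 6, HTB2 in 1 and HHT1 in 0 of its 37, of which 0 had an unadjusted p below 0.05 and 0 passed with DESeq2. In short, HHF2 and HTA1 mRNA was called lower in the hybrid than in S. cerevisiae at T0, M1 and M1M2 and lower than in S. paradoxus at T0, and HHF2, HTA1 and HTB2 were called higher at M1M2 than at T0 within the hybrid. Of these, both calls against S. cerevisiae at M1M2 were lost without 1 shallow library, HTA1 against S. paradoxus was lost in 5 of 7 fits without 1 library, and the HTB2 rise in 6 of 8. Calls that held in every such fit were the HHF2 rise in the hybrid, HTA1 against S. cerevisiae at T0 and HHF2 against S. paradoxus at T0. In each comparison of the hybrid with a parent, hybrid counts hold allele-assigned reads only, and the handling of parental reads is not given. The part of this in those calls was not tested. HHT1 ran from 389 to 2435 CPM over all 40 libraries. Where libraries of groups are said to overlap or not, this describes the 4 genes only. The share of all genes without overlap was not counted.

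**Figure D1:**
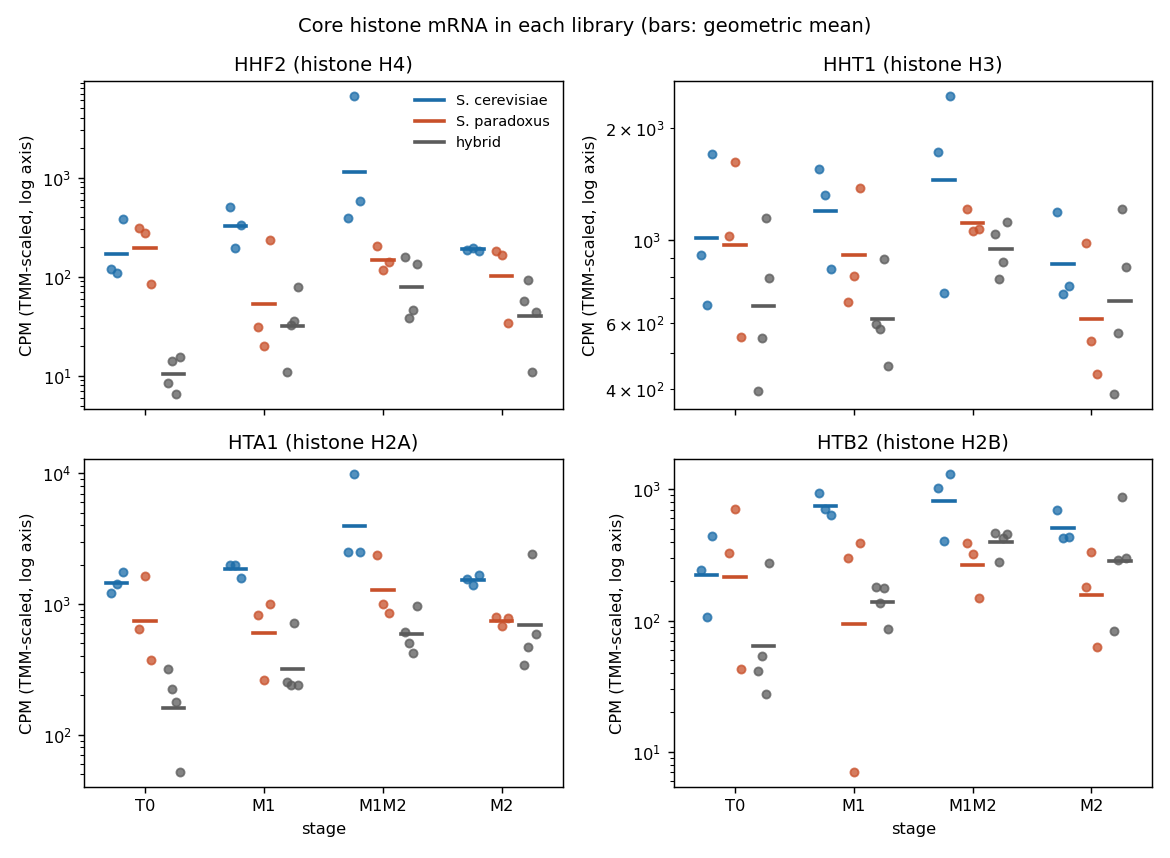
CPM of the 4 genes in each of the 40 libraries on log axes, by stage and genotype, with 1 point per library and a bar at the geometric mean of the group. The 4 hybrid libraries at T0 lie below all parental T0 libraries for HHF2 and HTA1, HHT1 points of all genotypes overlap, and 1 S. cerevisiae M1M2 library reaches 6668 CPM for HHF2.

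HHT1, for histone H3, was the steadiest. In S. cerevisiae its CPM was 915, 670 and 1705 at T0, 1553, 1324 and 836 at M1, 1727, 723 and 2435 at M1M2, and 1191, 718 and 753 at M2. In S. paradoxus it was 1025, 1620 and 553 at T0, 683, 802 and 1385 at M1, 1211, 1059 and 1071 at M1M2, and 987, 539 and 439 at M2. The hybrid had 396, 547, 1150 and 792 at T0, 597, 581, 890 and 463 at M1, 1038, 790, 873 and 1123 at M1M2, and 389, 565, 1214 and 849 at M2. Hybrid libraries overlapped those of each parent at every stage, and in all 11 steps between neighbours in the order of its 12 group means the gap was smaller than their pooled SD. The highest mean was S. cerevisiae at M1M2 (10.5 on the log2 CPM scale) and the lowest the hybrid at M1 (9.27).

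HHF2, for histone H4, had the widest range. In S. cerevisiae its CPM was 121, 109 and 380.4 at T0, 509, 194 and 335 at M1, 388, 6668 and 575 at M1M2, and 188, 196 and 182 at M2. In S. paradoxus it was 313, 278 and 84.2 at T0, 30.7, 19.8 and 236 at M1, 202, 115 and 139.8 at M1M2, and 181, 167 and 33.6 at M2. In the hybrid it was 8.46, 14.2, 6.55 and 15.3 at T0, 11.0, 32.2, 35.9 and 79.0 at M1, 159.5, 37.9, 45.6 and 134 at M1M2, and 56.8, 91.9, 10.8 and 43.9 at M2. The 4 hybrid T0 libraries, with 4 to 41 reads of the gene each, were all below every parental T0 library, and at each later stage the hybrid was also below every S. cerevisiae library. The value of 6668 is that of the shallowest library and rests on 83 reads. Of 11 neighbouring steps in the order of group means, 9 were within the pooled SD. The 2 that were not lie at the ends, S. cerevisiae M1M2 at the top (10.2 on the log2 CPM scale) and hybrid T0 at the bottom (3.51).

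HTA1, for histone H2A, had in S. cerevisiae a CPM of 1211, 1416 and 1757 at T0, 1984, 1976 and 1587 at M1, 2513, 9882 and 2509 at M1M2, and 1564, 1387 and 1659 at M2. In S. paradoxus it had 647, 1647 and 373 at T0, 821, 263 and 995 at M1, 2359, 1008 and 861 at M1M2, and 798.5, 674 and 776 at M2. In the hybrid it had 318, 224, 177 and 52.0 at T0, 253, 242, 709.9 and 240.2 at M1, 607, 500.2, 423 and 970 at M1M2, and 341, 469, 2395 and 586 at M2. Both the 9882 and the 2395 are from shallow libraries. The hybrid was below every S. cerevisiae library at T0, M1 and M1M2, and below every S. paradoxus library at T0. S. paradoxus was below every S. cerevisiae library at M1, M1M2 and M2. Its 4 S. cerevisiae groups were the top 4 of the 12 group means, and 6 of the 11 neighbouring steps were within the pooled SD.

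HTB2, for histone H2B, had in S. cerevisiae a CPM of 242, 106 and 437 at T0, 932.5, 703 and 637 at M1, 1021, 402 and 1307 at M1M2, and 699.6, 422 and 431 at M2. In S. paradoxus it had 325, 706 and 42.6 at T0, 302, 7.06 and 392 at M1, 392, 319 and 149 at M1M2, and 181, 334 and 63.3 at M2. In the hybrid it had 41.2, 53.6, 27.9 and 272 at T0, 179, 136, 176 and 85.6 at M1, 465, 282, 425 and 454 at M1M2, and 83.8, 292, 867 and 298.5 at M2. The M1 libraries of S. cerevisiae were all above its T0 libraries, and at M1, M1M2 and M2 S. paradoxus was below every S. cerevisiae library. The replicates of S. paradoxus at M1 spread most, with a log2 SD of 3.15. Of 11 neighbouring steps in the order of its groups, 10 were within the pooled SD.

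The question of how histone mRNA moves through meiosis was addressed with each stage against T0 within a genotype. Cells at T0 came from YPD and those of later stages from sporulation medium. Stage, medium and time since transfer cannot be told apart in these comparisons. In the hybrid, 3 of the 4 genes rose by M1M2, a comparison in which 22.1% of all genes passed in either direction. HHF2 rose by 3.10 ± 0.85 (adjusted p = 0.00485), HTA1 by 1.68 ± 0.59 (0.0302) and HTB2 by 2.07 ± 0.78 (0.046), while HHT1 had 0.41 ± 0.50 (0.606). For each of the 3 that rose, all 4 M1M2 libraries were above all 4 T0 libraries. The share of all genes that separate in this way was not counted. The median of the 4 genes was 1.88, against −0.04 over all genes tested. HHF2 passed in all 8 fits that leave out 1 library of these groups. HTA1 missed in 3 of the 8 and HTB2 in 6 of the 8.

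At M2 against T0 in the hybrid, where 26% of genes passed, HTA1 rose by 2.27 ± 0.60 (edgeR adjusted p = 0.00295) and HHF2 by 2.29 ± 0.84 (0.0355). HTB2 had 1.97 ± 0.78 and did not pass (0.0543), and HHT1 had 0.06 ± 0.50. HTB2 passed with DESeq2 (2.75, adjusted p = 0.003) and with RLE factors (2.74, 0.0121), and had 1.21 (0.278) without the shallow hybrid M2 replicate 3 and 3.16 (0.00493) without T0 replicate 4. Without the same M2 library, the HTA1 value was 1.24 with an adjusted p of 0.0923. The HHF2 call was lost in 4 of 8 fits without 1 library. At M1 against T0, where 12.5% of genes passed, none of the 4 did. Values were 1.83 ± 0.83 for HHF2, 0.89 ± 0.58 for HTA1, 0.58 ± 0.75 for HTB2 and −0.19 ± 0.50 for HHT1, and 1 of the 4 had an unadjusted p below 0.05. So did 787 of the 3094 genes tested. Between successive later stages none passed either, with 7.4% of genes passing at M1M2 against M1 and 0.679% at M2 against M1M2, and 0 of the 4 genes had an unadjusted p below 0.05 or passed with DESeq2. Among all genes 515 and 355 had such a p, and DESeq2 called 330 and 286.

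**Figure D2:**
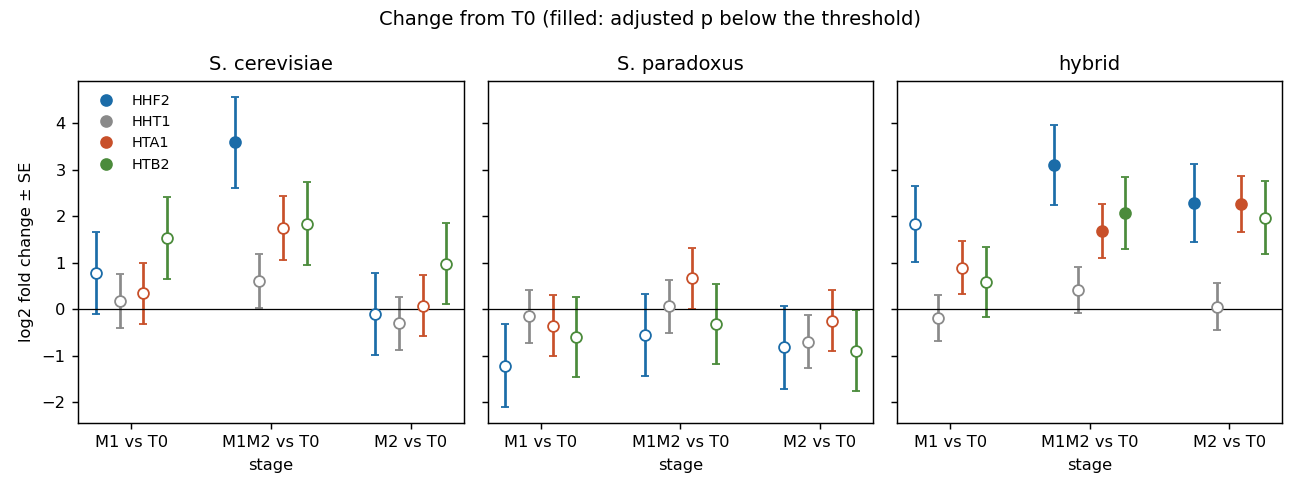
Log2 fold change from T0 ± SE of the 4 genes at each later stage, 1 panel per genotype, with filled points for an adjusted p below 0.05. In the hybrid panel 3 genes are filled at M1M2 and 2 at M2, in S. cerevisiae HHF2 alone is filled at M1M2, and no point is filled in S. paradoxus.

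In S. cerevisiae HHF2 was called at M1M2 against T0, at 3.59 ± 0.98 (edgeR adjusted p = 0.00926), where 12.4% of genes passed. It was called lower at M2 than at M1M2, at −3.70 ± 0.99 (0.00842), where 9.11% of genes passed. Both calls rest on the shallowest library: without S. cerevisiae M1M2 replicate 2 the values were 1.15 (0.588) and −1.37 (0.592). The remaining M1M2 libraries, at 388 and 575 CPM, were still above the 3 T0 libraries. At M1M2 HTA1 had 1.74 ± 0.68 (0.0818), HTB2 1.84 ± 0.89 (0.179) and HHT1 0.60 ± 0.58 (0.573), and HTA1 also had no overlap with T0. Without the shallowest library HTA1 had 0.68 ± 0.69 (0.638), HTB2 2.04 ± 0.94 (0.176) and HHT1 0.82 ± 0.60 (0.462). Against M1, where 2.33% of genes passed, HHF2 at M1M2 had 2.82 ± 0.95 (0.103). It passed with DESeq2 (adjusted p = 0.0229), but HHF2 had 0.41 ± 1.05 (edgeR adjusted p = 0.958) without the shallowest library. None passed at M1 against T0 (8.86% of genes passed) or at M2 against T0 (22.8%), and 0 of 4 had an unadjusted p below 0.05 or passed with DESeq2 in either. Among all genes 740 and 1070 had such a p, and DESeq2 called 532 and 978. HTB2 at M1 had 1.53 ± 0.88 (0.297).

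In S. paradoxus none of the 4 genes passed in any of the 5 comparisons of stages, 0 of 4 had an unadjusted p below 0.05 in any of them, and DESeq2 called 0. Of all genes, 186 to 812 had such a p in these comparisons, and DESeq2 called 43 to 674. Against T0 the values at M1 ran from −1.22 ± 0.89 (HHF2) to −0.15 ± 0.57 (HHT1), at M1M2 from −0.56 ± 0.88 (HHF2) to 0.67 ± 0.66 (HTA1), and at M2 from −0.89 ± 0.87 (HTB2) to −0.25 ± 0.66 (HTA1). Of all genes, 3.36%, 9.34% and 15.1% passed at these stages. The share was 1.84% at M1M2 against M1 and 0% at M2 against M1M2, where edgeR called 0 genes, 186 had an unadjusted p below 0.05 and DESeq2 called 43.

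Whether the genotypes differed in these changes was tested directly. For S. paradoxus minus S. cerevisiae, 1.97%, 2.62% and 1.52% of genes passed in the change from T0 to M1, M1M2 and M2, and none of the 4 histone genes did. The most negative value was HHF2 at M1M2, −4.16 ± 1.3 (edgeR adjusted p = 0.0745), which passed with DESeq2 (adjusted p = 0.0173). It too rests on S. cerevisiae M1M2 replicate 2, without which HHF2 had −1.59 ± 1.41 (edgeR adjusted p = 0.761). For the hybrid minus the mean of the parents, the share of genes that passed was 0% at M1, 0.42% at M1M2 and 0% at M2. In the M1 and M2 comparisons edgeR called 0 genes, while 259 and 210 had an unadjusted p below 0.05 and DESeq2 called 30 and 38. The 4 histone genes at M2 had 2.75 ± 1.04 (HHF2, 0.55), 2.35 ± 0.75 (HTA1, 0.455), 1.92 ± 0.98 (HTB2, 0.751) and 0.56 ± 0.64 (HHT1, 0.904). Of these, 2 had an unadjusted p below 0.05, and HTA1 passed with DESeq2 (adjusted p = 0.0325). Without hybrid M2 replicate 3 HTA1 had 1.28 (edgeR adjusted p = 0.938). At M1 and M1M2 none of the 4 had an unadjusted p below 0.05 and DESeq2 called 0. Of all genes at M1M2, 262 had such a p and DESeq2 called 50. With edgeR, then, the rise in the hybrid was not shown to differ from the mean change of the parents.

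Levels in the hybrid were compared with each parent at each stage, and HHF2 and HTA1 stood out. At T0 HHF2 was lower than in S. cerevisiae at −4.20 ± 0.91 (edgeR adjusted p = 0.00581) and HTA1 at −2.91 ± 0.64 (0.00582), in a comparison where 0.84% of genes passed. HTB2 had −1.44 ± 0.81 (0.632) and HHT1 −0.61 ± 0.53 (0.862). Against S. paradoxus at T0, where 2.1% of genes passed, HHF2 was lower at −4.35 ± 0.92 (0.00166) and HTA1 at −2.19 ± 0.62 (0.0457). Values of the others were −1.89 ± 0.81 (HTB2) and −0.56 ± 0.53 (HHT1). The HTA1 call against S. cerevisiae and the HHF2 call against S. paradoxus held in all 7 fits that leave out 1 library. HHF2 against S. cerevisiae was −3.50 (0.0786) without S. cerevisiae T0 replicate 3. HTA1 against S. paradoxus lost its call in 5 of 7. Both comparisons use the same hybrid libraries. At this and the later stages, hybrid counts lack reads without an assigned allele, and the handling of parental reads is not given. The part of this in the differences from the parents was not tested.

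At M1 the hybrid was lower than S. cerevisiae for HHF2 (−3.15 ± 0.86, edgeR adjusted p = 0.0177) and HTA1 (−2.35 ± 0.63, 0.0147), where 5.37% of genes passed. HTB2 had −2.39 ± 0.82 (0.0756) with no overlap between the groups, and HHT1 −0.97 ± 0.53 (0.357). In fits without 1 library the HHF2 call was lost in 4 of 7 and the HTA1 call in 3 of 7. At M1M2, where 8.34% of genes passed, HHF2 had −4.70 ± 0.92 (0.000294) and HTA1 −2.97 ± 0.64 (0.000987). Without S. cerevisiae M1M2 replicate 2 these were −2.32 (0.225) and −1.94 (0.0686), so neither call held. The 4 hybrid libraries nonetheless lay below the other 2 S. cerevisiae libraries for both genes. At M2, where 1.16% passed, HHF2 had −1.80 ± 0.83 (0.42), HTA1 −0.71 ± 0.61, HTB2 −0.45 ± 0.80 and HHT1 −0.24 ± 0.53. None was called, 1 of 4 had an unadjusted p below 0.05, and DESeq2 called 0. Of all genes 318 had such a p, and DESeq2 called 172.

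**Figure D3:**
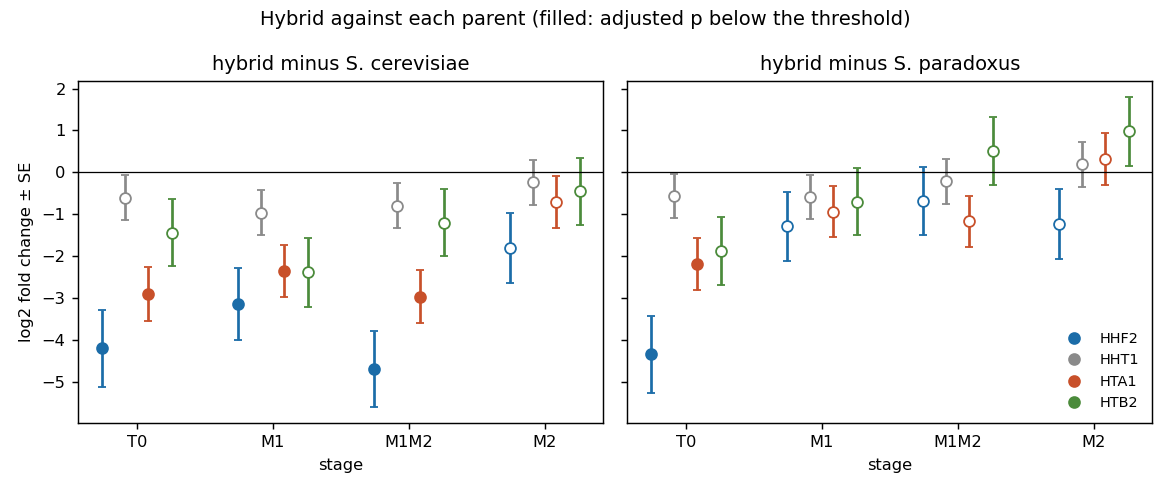
Log2 fold change ± SE of the hybrid minus S. cerevisiae (left) and minus S. paradoxus (right) for the 4 genes at each stage, with filled points for an adjusted p below 0.05. HHF2 and HTA1 are filled at T0, M1 and M1M2 on the left and at T0 alone on the right, and HHT1 stays between −0.97 and 0.19.

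After T0 no histone gene differed from S. paradoxus by the test, with 1.42%, 0.84% and 0.873% of all genes passing at M1, M1M2 and M2. HHF2 had −1.29 ± 0.82, −0.69 ± 0.82 and −1.24 ± 0.83 at these stages and HTA1 −0.94 ± 0.61, −1.17 ± 0.61 and 0.32 ± 0.62. None of the 4 had an unadjusted p below 0.05 at any of the 3 stages, and DESeq2 called 0. Of all genes 222, 177 and 351 had such a p, and DESeq2 called 79, 47 and 228. The median of the 4 genes against S. paradoxus was −2.04 at T0 and 0.26 at M2, against 0.02 and 0.11 over all genes. The T0 median was −1.16 without S. paradoxus T0 replicate 2, and the M2 median was −0.55 without the shallow hybrid M2 replicate 3 and 0.94 with RLE factors. For the hybrid minus S. cerevisiae it was −2.17 at T0, −2.37 at M1, −2.09 at M1M2 and −0.58 at M2, against 0.12, 0.04, 0.08 and −0.03, and the M2 value was −1.40 without the same library.

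Between the species themselves 1 of 16 tests passed. S. paradoxus minus S. cerevisiae gave −4.01 ± 1.00 for HHF2 at M1M2 (edgeR adjusted p = 0.0105), where 3.39% of genes passed, and −1.62 (0.781) without the shallowest library. At T0 (5.04% of genes passed) the 4 genes ran from −0.72 ± 0.66 (HTA1) to 0.45 ± 0.86 (HTB2). At M1 (2.84%) HHF2 had −1.85 ± 0.91, HTB2 −1.69 ± 0.88 and HTA1 −1.41 ± 0.67, and at M2 (2.13%) HTB2 had −1.43 ± 0.88 and HTA1 −1.04 ± 0.67, with no overlap between the species for HTB2 and HTA1. HHF2 at M2, at −0.56 ± 0.89, also had no overlap, with S. paradoxus up to 181 and S. cerevisiae from 182 CPM. At T0, M1 and M2 none was called, DESeq2 called 0, and 0, 2 and 0 of the 4 had an unadjusted p below 0.05. Of all genes 598, 503 and 477 had such a p, and DESeq2 called 371, 230 and 196.

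Reads of the hybrid that the authors assigned to 1 species were taken as mRNA of that genome. How reads that match both species were assigned is not given in the sources used here. No histone gene passed the test of S. paradoxus minus S. cerevisiae allele at any stage, with 0.133%, 0.868%, 0.834% and 1.53% of 2997 genes passing at T0, M1, M1M2 and M2. Of the 4 genes 0, 0, 1 and 0 had an unadjusted p below 0.05, and DESeq2 called 0. Of all genes 157, 275, 249 and 340 had such a p, and DESeq2 called 80, 224, 113 and 215. The S. paradoxus share of HTA1 was 26.0%, 22.7%, 26.0% and 25.8% in the 4 M1M2 libraries, with 95% exact (Clopper-Pearson) intervals between 19.3 and 29.8% that cover counting error only. These shares were below 50% in every M1M2 library. The allele difference was −1.69 ± 0.81 (edgeR adjusted p = 0.581), and 0.0306 when only that stage was fitted, which passes.

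At other stages HTA1 scattered widely, with shares of 75.7%, 26.4%, 7.41% and 58.8% at T0, 75.4%, 31.5%, 32.3% and 2.78% at M1, and 23.8%, 38.9%, 74.2% and 2.14% at M2, the 74.2% being from the shallow library. It lay below 50% in 12 of 16 hybrid libraries, in all 12 with an interval that stays below 50%. It lay above 50% in the other 4, in 3 of them with an interval that stays above 50%. How many of all genes have such shares was not counted. HHT1 at M1M2 had shares of 56.8%, 61.8%, 57.2% and 63.3%, and was above 50% in 12 of 16 libraries. HTB2 had 51.1%, 50.3%, 48.2% and 44.2% at M1M2, close to equal in all 4, whereas at T0 it ran from 5.62 to 87.9% and at M1 from 1.3 to 97.4%. The HHF2 share at M1M2 was 34.3%, 0%, 95.1% and 56.4%, the 0% being 0 of 42 reads with an upper limit of 8.41%. Over all genes together the S. paradoxus share per library was 49.5 to 65.5%. The 65.5% was that of hybrid T0 replicate 1, and the next highest library had 52.0%. Hybrid T0 replicate 1 also had the highest T0 share of each histone gene. These were 90.9% for HHF2, 69.5% for HHT1, 75.7% for HTA1 and 87.9% for HTB2. The part of the library as a whole in these shares was not tested. M1M2 was thus the stage at which replicates lay closest together for HHT1, HTA1 and HTB2, and HHF2 was spread at M1, M1M2 and M2.

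**Figure D4:**
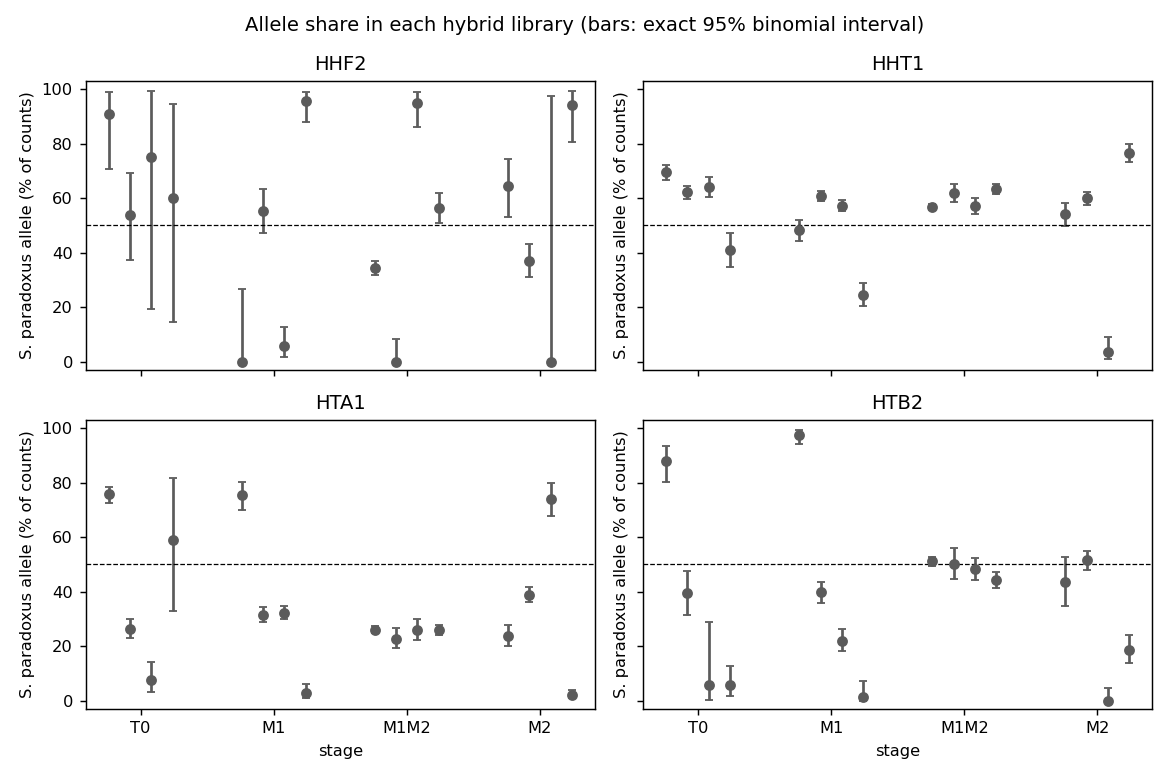
Share of allele-assigned counts that came from the S. paradoxus allele, in percent, in each of the 16 hybrid libraries by stage, with exact 95% binomial intervals and a dashed line at 50%. HTA1 lies between 22.7 and 26.0% in the 4 M1M2 libraries, HHT1 between 56.8 and 63.3%, HTB2 between 44.2 and 51.1%, and HHF2 spreads from 0 to 95.1%.

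The parental and the allelic differences can be set side by side, since they come from different libraries. For HTA1 the difference of S. paradoxus minus S. cerevisiae was −0.72, −1.41, −1.80 and −1.04 between parents at T0, M1, M1M2 and M2, with SEs of 0.66 to 0.68. Between alleles it was −0.93, −1.35, −1.69 and −1.52, with SEs of 0.81 to 0.98. All 8 values are negative and none passed the test. They move with single libraries: leaving out 1 at a time, the parental value ran from −1.52 to −0.35 at T0, −1.77 to −0.93 at M1, −2.18 to −0.79 at M1M2 and −1.10 to −0.91 at M2. The allelic value ran from −1.60 to −0.11, −2.31 to −0.39, −1.71 to −1.66 and −2.44 to −0.49 at the same stages. At M1M2 the parental value of −0.79 is that without the shallowest library. For HHF2 at M1M2 the parental value was −4.01 and the allelic one −0.49 ± 1.98. Parental and allelic signs differed for HTB2 at T0 (0.446 and −1.60) and HHF2 at M2 (−0.563 and 0.388). They also differed for HHT1 at T0 (−0.0415 and 0.312) and at M1M2 (−0.582 and 0.465). SEs of these values were 0.571 to 1.87. At the other stages of these genes the signs were the same. No test of the parental against the allelic difference was made.

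Total scaling was set aside in a further comparison, chosen after seeing the data, by taking HHF2, HTA1 and HTB2 as a ratio to HHT1 in the same library. These ratios are not corrected for length and are read between libraries only. In the hybrid HHF2 counts were 0.57 to 2.59% of HHT1 at T0 and 4.8 to 15.4% at M1M2, a rise of 2.31 on the log2 scale. HTB2 was 2.42 to 34.4% of HHT1 at T0 and 35.7 to 48.7% at M1M2, a rise of 2.12. Groups of 4 did not overlap in either case, with an exact two-sided permutation p of 0.0286, the smallest that 4 against 4 allows. HTA1 was 6.56 to 80.4% of HHT1 at T0, 48.4 to 86.4% at M1M2 and 69.0 to 197% at M2. The 197% is the shallow replicate 3 (221 over 112 reads), and the other 3 M2 libraries had 69.0, 83.1 and 87.8%. Adjusted over the 9 such tests, none passed: the lowest adjusted p was 0.128. In the parents at T0 the HHF2 ratio was 13.2 to 22.3% in S. cerevisiae and 15.2 to 30.5% in S. paradoxus, above all hybrid T0 libraries. Hybrid counts lack reads without an assigned allele, and the handling of parental reads is not given. The part of this in the ratio was not tested.

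Other genes of histone supply were taken from lists chosen with earlier results of these data known. Genes of these lists, the replication genes and histone-modifying enzymes below included, were not refitted without single libraries. Their calls at M1M2 in S. cerevisiae thus include the shallowest library. Those at M1 in S. cerevisiae, and at M2 in S. paradoxus and in the hybrid, each include another of the 4 shallow libraries. Whether these calls hold without them was not tested. Of 28 genes that regulate histone genes or chaperone histones, 16 were tested. In S. cerevisiae 2 were higher and 0 lower than at T0 at M1, M1M2 and M2 alike, in S. paradoxus 1 was higher at M1M2, and in the hybrid 2 were higher at M1, 2 at M1M2 and 1 at M2, with 1 lower at M2. For scale, 2 of 16 stand beside 8.86%, 12.4% and 22.8% of all genes called in S. cerevisiae, and beside 12.5%, 22.1% and 26% in the hybrid, so these counts were near or below that of all genes. CAC2, a subunit of the chromatin assembly factor that deposits H3 and H4 behind the replication fork, was higher at M1M2 in all 3 genotypes. Its values were 4.77 ± 1.1 in S. cerevisiae (edgeR adjusted p = 0.00215), 3.06 ± 1.01 in S. paradoxus (0.0424) and 3.10 ± 0.88 in the hybrid (0.00645). CAC2 was also higher in the hybrid at M1 by 2.63 ± 0.86 (0.0338) and in S. cerevisiae at M2 by 3.08 ± 1.01 (0.0196). In its other comparisons with T0 it was not called. RTT109, the acetyltransferase of new H3, had a mean count of 126 over the 40 libraries. It was higher in S. cerevisiae at M1, M1M2 and M2 by 7.30 ± 2.01 (0.0136), 7.03 ± 1.99 (0.0124) and 6.17 ± 1.92 (0.0135). In the hybrid RTT109 was higher at M1 by 4.44 ± 1.5 (0.0403) and at M1M2 by 3.95 ± 1.47 (0.0436). HIR1, a subunit of the HIR repressor, was higher in the hybrid at M2 by 3.11 ± 0.95 (0.0107), the stage at which CHZ1, a chaperone of the H2A variant, was lower at −2.26 ± 0.64 (0.0059). HPC2 (HIR complex), SPT21 (a partner of Spt10) and ASF1 (an H3 and H4 chaperone) were called in none of the 9 comparisons with T0. SPT21 had 2.73 ± 1.27 (0.159) at M1M2 in S. cerevisiae, and ASF1 2.68 ± 1.11 (0.21) at M1 in S. paradoxus.

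Of 25 genes for DNA replication and nucleotide supply, 20 were tested. Against T0, 2, 6 and 4 of them were higher in S. cerevisiae at M1, M1M2 and M2, 0, 2 and 1 in S. paradoxus and 1, 2 and 2 in the hybrid, with 1 lower, in the hybrid at M2. Over all genes, called in either direction, the shares were 8.86%, 12.4% and 22.8%, then 3.36%, 9.34% and 15.1%, then 12.5%, 22.1% and 26%, and S. cerevisiae at M1M2, with 6 of 20, was the count farthest above its share. RNR1, the large subunit of ribonucleotide reductase, was higher in S. cerevisiae at M1M2 by 3.73 ± 0.90 (edgeR adjusted p = 0.00315), while the hybrid there had 0.83 ± 0.70. Neither this call nor the count of 6 was checked without the shallowest library. POL1, the catalytic subunit of the primase-polymerase, was higher in S. cerevisiae at M1 by 3.03 ± 0.98 (0.0378). RFA2, a subunit of the single-strand binding protein RPA, was higher in the hybrid at M1, M1M2 and M2 by 2.66 ± 0.79, 3.47 ± 0.82 and 2.61 ± 0.79. MCM3, of the replicative helicase, was lower in the hybrid at M2 at −3.19 ± 0.83 (0.00255). Of the same 20, 1 was lower in the hybrid than in S. cerevisiae at M1M2 and none at the other stages, and none differed from S. paradoxus.

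Of 27 histone-modifying enzymes 13 were tested. In the hybrid 0, 1 and 3 were higher than at T0 at M1, M1M2 and M2, and 2, 2 and 3 lower, and in S. cerevisiae 0, 0 and 3 were higher and 1, 1 and 2 lower. In S. paradoxus 1 was lower at M1M2, and 1 was higher and 1 lower at M2. The same shares of all genes stand beside these counts, and nothing is read from the counts about the list. RPH1, a demethylase of H3, was lower at M1M2 in all 3 genotypes, at −2.52 ± 0.88 in S. cerevisiae (edgeR adjusted p = 0.0467), −3.78 ± 0.90 in S. paradoxus (0.00284) and −4.16 ± 0.79 in the hybrid (4.66e-05). HST3, a deacetylase of H3, was higher in the hybrid at M1M2 by 3.45 ± 0.69 (0.000105). At M2 it was higher in S. cerevisiae by 3.69 ± 0.80 (0.000355) and in S. paradoxus by 2.62 ± 0.76 (0.0123). GIS1, a relative of RPH1, was higher at M2 in S. cerevisiae by 3.69 ± 0.76 (0.000175) and in the hybrid by 3.36 ± 0.65 (5.75e-05). Between the hybrid and S. cerevisiae, 1 of the 16 regulators and chaperones was lower at M1 and 1 of the 13 modifiers was higher at M1M2, and no member of these 2 lists was called against S. paradoxus.

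How alike the 4 genes were was described by Spearman's rho of log2 CPM over the 40 libraries, which share depth and stage. Between pairs of the 4 it ran from 0.533 to 0.765, and from 0.644 to 0.849 without the 4 shallow libraries. Within groups, after each group's mean was removed, it ran from 0.066 to 0.633. Among 2859 other genes with a mean count of at least 50, those most like the mean of the 4 were VMA3 (0.618), a subunit of the vacuolar proton pump, VNX1 (0.591), a vacuolar ion exchanger, LEM3 (0.588), a partner of lipid flippases, SPP382 (0.567), a splicing factor, and YPK1 (0.558), a protein kinase. For single genes the most alike were VMA3 (0.7) and VNX1 (0.667) for HHF2, NCE102 (0.607) and RPN3 (0.552) for HHT1, LEM3 (0.61) and VNX1 (0.586) for HTA1, and POL1 (0.528) and DNF1 (0.487) for HTB2. The replication gene POL1 thus led for HTB2 alone.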

How the data were processed

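Per the labels' protocols, cDNA primed on poly-A RNA of 40 yeast cultures was run on HiSeq lanes. The labels name no batch other than the index adapters, of which 3 libraries have 2. Per the submitters' processing notes Bowtie 0.12.7 and DESeq 1.8.3 were used. Counting tool, annotation and build are not given in the sources used here. The authors deposited raw counts per feature and per allele of the hybrid, and these were used; the variance-stabilised values they also deposited were not. Of 3463 features, 246 name no gene and were left out (0.392 to 4.95% of the counts of a library).

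The fit used edgeR 4.0.16 in R 4.3.3 on the counts of 3217 genes (TMM factors of 0.531 to 1.34, filterByExpr by group, quasi-likelihood F test) with 1 mean for each of 12 groups. It tested 3094 genes, and p-values were adjusted by Benjamini-Hochberg in each comparison separately, with a threshold of 0.05. The common coefficient of variation was 0.871. Alleles were compared with the library as a block (2997 genes). An SE is the absolute log2 fold change over the square root of F. Log2 CPM used a prior count of 2 and ratios a pseudocount of 0.5. Permutation tests and binomial intervals used SciPy 1.17.1. The fit was tested on simulated data. DESeq2 1.42.0, RLE factors, no filter, a replicate block, only the groups compared, no shallow libraries and leaving out each library were the alternatives.

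The 4 members and the gene lists were chosen with earlier results of these data known. Besides the members, HIR1, HPC2, SPT21, ASF1, CAC2 and RNR1 were to be named, with up to 2 called genes of each list per comparison of a stage with T0 by the size of the change (mean count at least 50), and the genes most alike in rank correlation; not all are printed.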

Additional observations from a re-analysis of the deposited data

Results flagged for a closer look

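In 44 groups of 4 hybrid libraries, single libraries were compared with the other 3 by the gap to the nearest value over the whole range (Dixon's ratio, critical value 0.829), and 3 stood apart. Chance gives about 1 in 20 such groups. HTA1 in hybrid M1 replicate 3 had the highest log2 CPM, 9.47, against 7.91 to 7.99 in the others. The log2 ratio of the HTA1 alleles (S. paradoxus over S. cerevisiae) in hybrid M1M2 replicate 2 was the lowest, −1.76, against −1.52 to −1.5. HHF2 in hybrid T0 replicate 3, with 4 reads, had the lowest log2 ratio to HHT1, −7.29, against −5.56 to −5.25.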

How the results depend on the processing

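Of 148 tests on the 4 genes 16 passed with edgeR and TMM, against 14 with RLE factors (13 of the 16 among them), 16 without the filter, 20 with DESeq2 (all 16 among them), 12 with a replicate block, 12 without the 4 shallow libraries and 13 when only the groups compared were fitted (10 of the 16). All alternatives named in the processing were run, and the ratio to HHT1 was added after seeing the data. The cause of a lost call was not tested. RLE factors moved the median of all genes by −0.20 to 0.28 on the log2 scale. The share of genes that passed also depended on the tool: at T0, DESeq2 called 83 against 26 genes for the hybrid minus S. cerevisiae and 163 against 65 for the hybrid minus S. paradoxus. At M1 it called 295 against 166 for the hybrid minus S. cerevisiae, at M1M2 196 against 105 for S. paradoxus minus S. cerevisiae, and within S. cerevisiae 624 against 384 at M1M2 against T0 and 433 against 282 at M2 against M1M2. RLE factors gave 87 against 21 for M2 against M1M2 in the hybrid. Low read numbers limit HHF2 in the hybrid most.

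Replicate numbers were not taken to pair the libraries, since the labels do not say so. Of 60 pairs of 1 genotype with the same number, 7 had a correlation of deviations over 0.1 (median 0.0266, range −0.144 to 0.208). Of 144 pairs of 1 genotype with different numbers, 12 did (median −0.0112, range −0.239 to 0.178). Among 40 libraries 20 correlated best with their own number, a hint from the data and not the design. How many would do so by chance was not worked out. With the replicate block 4 calls were lost, at 3.24 and −3.36 for HHF2 in S. cerevisiae (M1M2 against T0, M2 against M1M2), 2.23 for HHF2 at M2 against T0 in the hybrid and −2.17 for HTA1 in the hybrid against S. paradoxus at T0. Under the block, values that did not pass changed sign to 0.14 for HTB2 (M1 against T0 in S. paradoxus), 0.094 for HHT1 (S. paradoxus against S. cerevisiae at T0) and −0.037 for HHF2 (alleles at M2), and the median for alleles at M1 was −0.27.

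With RLE factors the calls lost were HTB2 at 2.02 and HTA1 at 1.69 (M1M2 against T0 in the hybrid) and HTA1 at −2.18 (hybrid against S. paradoxus at T0). Sign changed, for values that did not pass, to −0.0086 for HTA1 (M2 against T0 in S. cerevisiae), −0.019 for HHF2 (S. paradoxus against S. cerevisiae at T0) and 0.29, 0.31 and 0.11 for HTB2, HHT1 and HTA1 (hybrid against S. cerevisiae at M2). DESeq2 gave −0.0085, −0.019, 0.31, 0.29 and 0.12 for the same values in the same order. Medians of the 4 genes were 0.50 with each tool for M2 against M1M2 in the hybrid, 0.20 with each for the hybrid against S. cerevisiae at M2, and 0.94 with RLE factors for the hybrid against S. paradoxus at M2. No filter gave −0.0012 for HTA1 (M2 against T0 in S. cerevisiae) and 0.0027 for HHT1 (M1 against T0 in the hybrid).

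Without the 4 shallow libraries HHF2 lost its calls at M1M2 against T0 (1.21) and M2 against M1M2 (−1.34) in S. cerevisiae, and against S. cerevisiae at M1M2 in S. paradoxus (−1.61) and in the hybrid (−2.31). Values that did not pass changed sign to 0.048 for HTA1 (M2 against T0 in S. paradoxus), −0.19 for HHT1 (M2 against T0 in the hybrid), −0.020 for HHF2 (S. paradoxus against S. cerevisiae at T0), −0.34 for HHT1 and −0.85 for HTA1 (hybrid against S. paradoxus at M2) and 0.78 for HHT1 (alleles at M2). Medians moved to 1.05 (M1M2 against T0 in S. cerevisiae), 1.31 (M2 against T0 in the hybrid), −1.41 and −0.57 (hybrid at M2 against S. cerevisiae and S. paradoxus), 1.37 (change to M2 against the parental mean) and −0.035 (alleles at M2).

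When only the groups compared were fitted, the lost calls of HHF2 were 3.43 (M1M2 against T0) and −3.47 (M2 against M1M2) in S. cerevisiae, 2.39 (M2 against T0 in the hybrid), −3.74 (S. paradoxus against S. cerevisiae at M1M2) and −4.18 (hybrid against S. cerevisiae at T0). HTA1 lost its call at −2.21 (hybrid against S. paradoxus at T0), and HHT1 changed sign to 0.026 (M1 against T0 in S. paradoxus).

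Leaving out 1 library at a time gave the following ranges. In S. cerevisiae they were −0.22 to 0.52 for HHT1 at M1 against T0, 1.15 to 4.18 for HHF2 and 0.98 to 2.02 for the median at M1M2, −0.67 to 0.074 for HHT1, −0.063 to 0.16 for HTA1 and −0.51 to 0.63 for HHF2 at M2, and −4.24 to −1.37 for HHF2 at M2 against M1M2. In S. paradoxus against T0 they were −1.21 to 0.35 for HTB2, −0.52 to 0.28 for HHT1, −0.73 to 0.44 for HTA1 and −0.96 to 0.32 for the median at M1. At M1M2 they were −0.85 to 0.64 for HTB2, −0.25 to 0.50 for HHT1 and −0.55 to 0.57 for the median, and at M2 −1.42 to 0.065 for HTB2 and −0.61 to 0.56 for HTA1. The hybrid against T0 had −0.40 to 0.30 for HHT1 at M1, 1.89 to 3.37 for HTB2 and 1.45 to 2.14 for HTA1 at M1M2, and −0.28 to 0.38 for HHT1, 1.24 to 2.60 for HTA1, 1.87 to 2.54 for HHF2 and 1.23 to 2.29 for the median at M2.

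For S. paradoxus against S. cerevisiae, leaving out 1 library gave −0.51 to 0.97 for HTB2, −0.48 to 0.27 for HHT1 and −0.32 to 0.83 for HHF2 at T0, −4.54 to −1.62 for HHF2 at M1M2, and medians of −1.90 to −0.54 and −2.06 to −0.74 in the change to M1 and M1M2. The hybrid against S. cerevisiae ran from −4.65 to −3.50 for HHF2 at T0, −2.92 to −2.06 for HTA1 and −3.61 to −2.75 for HHF2 at M1, −3.29 to −1.94 for HTA1 and −5.23 to −2.32 for HHF2 at M1M2, and −0.59 to 0.027 for HHT1 and −1.40 to −0.27 for the median at M2. Against S. paradoxus it ran from −2.56 to −1.39 for HTA1 and −2.49 to −1.16 for the median at T0, −1.82 to 0.64 for HHF2 at M1, and −0.019 to 1.60 for HTB2, −0.26 to 0.62 for HHT1, −0.85 to 0.60 for HTA1 and −0.55 to 0.51 for the median at M2. The median change to M2 against the parental mean was 1.18 to 2.45. Allele differences were −2.52 to 0.15 for HTB2, −0.51 to 0.19 for HHT1, −3.18 to 0.14 for HHF2 and −1.48 to −0.12 for the median at M1, −1.86 to 0.82 for HHF2 at M1M2, and −1.03 to 0.78 for HHT1, −0.68 to 1.11 for HHF2 and −1.25 to −0.035 for the median at M2.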
